A study of Ginkgo biloba with 6 samples.

Results

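The genes described here are 702 Ginkgo biloba gene IDs whose RNA level was at least 2-fold higher in truncated C and control B, 1 leaf library of each treatment group, than in each of the other 4 libraries. They were chosen by that pattern: on the log2(FPKM + 1) scale, the lower of truncated C and control B had to exceed the highest of truncated A, truncated B, control A and control C by at least 1, a difference called the gap below. FPKM corrects the number of fragments from a gene for the length of its transcript and for library size. Eligible were 15688 IDs with Gb numbers that averaged 1 FPKM or more, leaving out the 100 Gb IDs of highest mean, so that the set held 4.47% of the eligible IDs and 702 of the 26044 IDs listed. All 702 were measured and tested, and 2 of them lay exactly at a gap of 1. The levels of the 6 libraries chose the set and are therefore given as a description, without a test. What the choice did not settle outright was tested or set beside all eligible IDs. These points were the difference between truncated and control leaves and the order of truncated C and control B. They were also the order of the other 4 libraries and the place of the IDs in the numbering. The choice still limits how far the groups can differ, because the high library of each group must exceed the low ones of the other. Fold differences below compare FPKM + 1 values, so that those of weak genes come out too small.

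The truncated group comprised 30 trees cut back to a trunk of 85 cm, and the control group 30 uncut trees. All trees belonged to the cultivar Fozhi, had an age of 5 years and stood at a row spacing of 0.6 m in a nursery where leaves are harvested. Leaves at the harvesting stage gave 3 truncated libraries and 3 control libraries, lettered A to C. The labels state neither how many trees gave a library nor the leaf's age, its position on the tree or the hour of sampling, so that any p-value below refers to variation among these libraries alone, whose source may be technical.

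Ginkgo is a deciduous gymnosperm whose leaves are harvested for flavonoids. A whole-leaf library mixes RNA of mesophyll, epidermis and vascular tissue, and in plants the RNA pool of a leaf is known to change as the leaf expands, matures and senesces and over the course of a day. Cutting a trunk back makes a tree form its leaves on young regrown shoots, which is the sense of rejuvenation in the title of the study. In such bulk samples, fewer cells of a type and less RNA per cell cannot be told apart. The files pair the IDs with no gene names, functions or positions, so the set was described by level, and whether it holds genes of a common leaf state was not tested.

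The 702 genes stood at weak or moderate levels in 4 libraries and at clearly higher levels in the other 2. Their median level was 3.13 FPKM in truncated A, 2.09 FPKM in truncated B and 13.6 FPKM in truncated C, against 3.12 FPKM in control A, 12.4 FPKM in control B and 2.86 FPKM in control C. Among the eligible IDs outside the set the medians were far closer, at 7.34, 6.23 and 8.23 FPKM in truncated A, B and C and 6.88, 8.21 and 7.26 FPKM in control A, B and C. In truncated C, 426 of the 702 genes reached 10 FPKM, as did 410 in control B, while 88 did so in truncated B and between 138 and 152 in truncated A, control A and control C. No member was below 1.93 FPKM in truncated C or below 2.18 FPKM in control B.

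**Figure D1:**
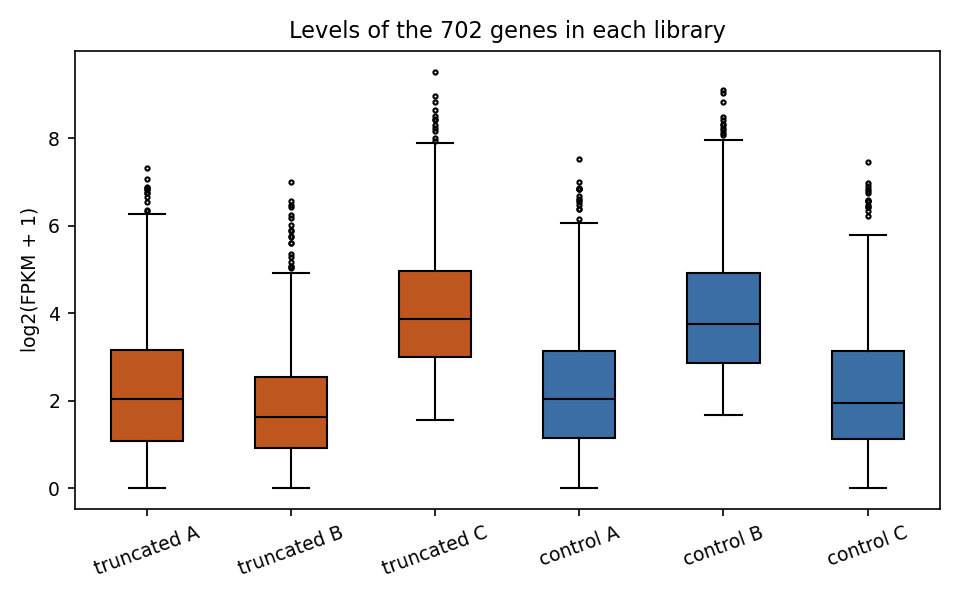
Box plots of log2(FPKM + 1) of the 702 genes in each library, truncated in orange and control in blue. Boxes span the quartiles with the median as a line, whiskers reach the last value within 1.5 box lengths and points lie beyond them. Truncated C and control B stand above the other 4, as the choice of the genes requires, and truncated B is the lowest.

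Summed over the set, these genes took up 3.41% of all FPKM in truncated C and 3.27% in control B. In the other libraries they took up 0.816% (truncated A), 0.507% (truncated B), 0.855% (control A) and 0.842% (control C). By treatment the share averaged 1.58 ± 1.6% in truncated leaves and 1.65 ± 1.40% in control leaves (SD, n = 3 each), a difference far smaller than the spread within either group. The median SD within a group, on the log2(FPKM + 1) scale, was 1.19 in truncated and 0.98 in control libraries for the set, and 0.33 in truncated and 0.22 in control libraries for the eligible IDs outside it. The large spread of the set follows from the way it was chosen. So, in part, does the likeness of the group averages, since each group holds a high library.

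The 2 members with the largest gap show the pattern in full. Gb_04743 had 6.88, 4.47 and 79.07 FPKM in truncated A, B and C and 10.42, 82.01 and 9.9 FPKM in control A, B and C, a gap of 2.81. Gb_07750 had 2.74, 2.44 and 33.96 FPKM in truncated A, B and C and 3.76, 30.03 and 2.19 FPKM in control A, B and C, a gap of 2.70. In both, truncated C and control B lay at like levels, and the truncated and control groups overlapped.

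The gap ranged to 2.81 with a median of 1.36, which corresponds to a ratio of 2.56 between the FPKM + 1 values of the lower high library and the highest low library. It was at least 1.5 in 256 members, at least 2 in 61 and at least 2.5 in 8. Taken as the mean of truncated C and control B minus the mean of the other 4 libraries, the difference had a median of 1.82 on the log2(FPKM + 1) scale and a range of 1.13 to 3.25. The threshold cut a continuous distribution. The 5 members nearest to it had gaps of 1 to 1.0017, and the 5 IDs just outside it had gaps of 0.9964 to 0.99966.

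The pattern was one-sided. Reversing the condition, so that truncated C and control B both lie at least 1 below the lowest of the other 4 libraries, left 3 eligible IDs (0.0191%) where the condition itself found 702 (4.47%). With a gap of at least 0.5 the numbers were 1901 with both libraries high and 30 with both low. For any gap above 0 they were 5194, or 33.1% of eligible IDs, against 1774, or 11.3%. The imbalance was thus larger at a gap of 0.5 and of 1 than over all gaps. The largest gap of all, 3.17, belonged nonetheless to 1 of the 3 IDs that were low in truncated C and control B.

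**Figure D2:**
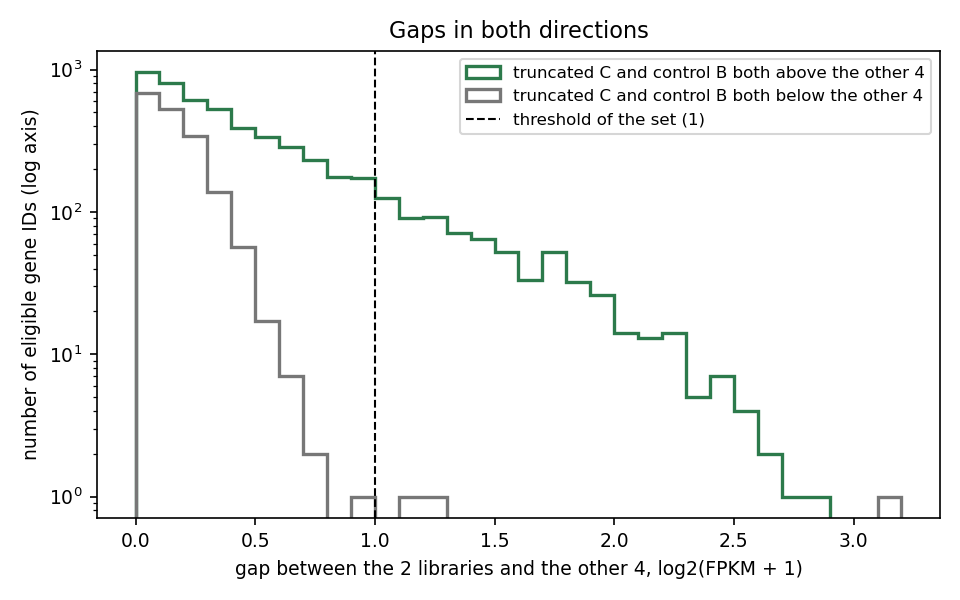
Number of eligible IDs (log axis) by the gap between truncated C with control B and the other 4 libraries, in log2(FPKM + 1). The green line counts IDs with both libraries above the other 4 and the grey line those with both below. Beyond the dashed threshold lie 702 IDs on the high side and 3 on the low side.

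Other features of the same 2 libraries moved with the set. The 100 Gb IDs of highest mean, which the set leaves out, held 37.4% of all FPKM in truncated C and 38.1% in control B, against 50.1% in truncated B and between 43.6% and 45.2% in truncated A, control A and control C. IDs at 1 FPKM or more were most frequent in truncated C (16705) and control B (16218) and least in truncated B (14912). Over all eligible IDs, the mean of truncated C and control B exceeded that of the other 4 libraries by a median of 0.15 (log2), against 1.82 in the set. Scaling the libraries by the median of ratios turned this median shift of all eligible IDs into -0.03, and 516 of the 702 members then still met the gap, with 4 IDs on the low side. Relative depth was estimated from weak genes, as the most frequent ratio of their FPKM in control A to that in each library. It was 1.09 in truncated C and 0.939 in control B, against 0.933 to 1.01 in the other libraries. Shifts in the level of weak genes could enter this ratio as well, and the absolute depth is unknown. The libraries were also apart in genes outside the set: the first principal component of the 14986 other eligible IDs, with 52.1% of their variance, scored truncated C at 42.1 and control B at 39.4, against -59.3 for truncated B and -10.8 to -5.42 for the other libraries. The part of these features in the levels of the set was not tested further.

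The members were spread over most of the range of leaf transcript levels, with fewer among strongly expressed genes. Their mean over the 6 libraries ran from 1.01 to 278.1 FPKM with a median of 6.26 FPKM, against a median of 7.46 FPKM over all eligible IDs. Of the IDs with a mean of 1 to 5 FPKM, 301 of 6237 were members (4.83%), and of those between 5 and 50 FPKM, 360 of 7727 (4.66%). Of those at 50 FPKM or more, 41 of 1724 were members (2.38%). Gaps were wider in more abundant members: the median gap was 1.27, 1.44 and 1.57 in the 3 classes in rising order, and the gap was at least 2 in 3.32%, 11.7% and 22.0% of them. The log2(FPKM + 1) scale compresses the gaps of weak genes, so this order of the classes depends in part on the scale.

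Most members were also present in the low libraries. Of the 702, 79 were below 1 FPKM in each of the 4 low libraries. A value of 0 in at least 1 low library was listed for 38 members, and none was listed at 0 in all 4. Some IDs that were not eligible met the same gap. Of 266 loci with XLOC numbers that averaged 1 FPKM or more, 9 met the gap (3.38%), and of the 100 Gb IDs of highest mean, 1 did, at a gap of 1.22.

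Truncated C and control B came from different treatments, and held the set at nearly the same level. Their difference, truncated C minus control B, had a median of 0.084 (log2) and quartiles of -0.11 and 0.27. It stayed under 2-fold in 696 members (99.1%), against 93.1% of the eligible IDs outside the set. Truncated C was at least 2-fold higher in 5 members and at least 2-fold lower in 1. Requiring both libraries to be high limits how far they can differ, so these shares are a description. Truncated C was the higher of the pair in 422 members (60.1%), against 50.8% of all eligible IDs. With median-of-ratios scaling these shares were 54.4% and 45.2%. The share was 64.1% of members with a mean of 1 to 5 FPKM, 58.3% between 5 and 50 FPKM and 46.3% above, and in the eligible IDs outside the set it likewise ran 57.9%, 45.9% and 43.1%.

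**Figure D3:**
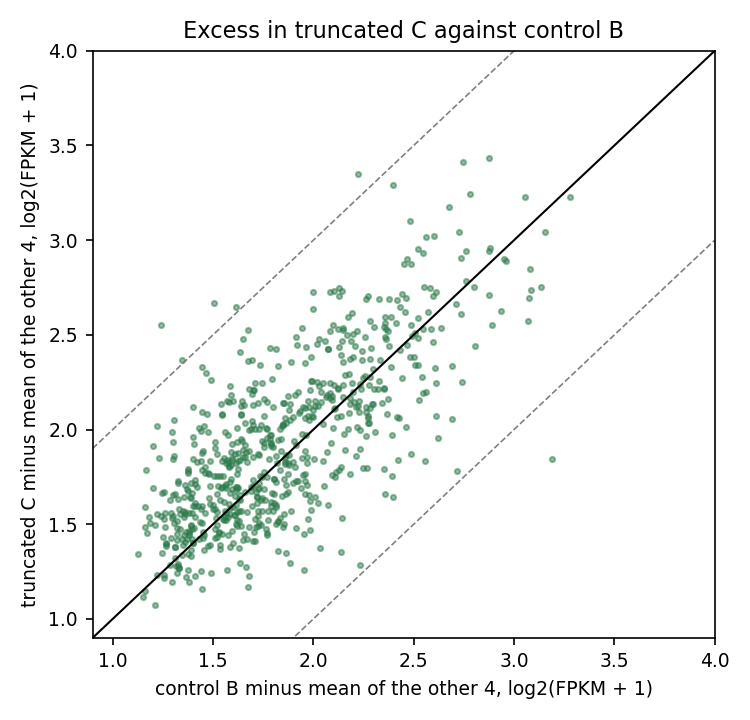
Each point is 1 of the 702 genes, with its excess over the mean of the other 4 libraries in truncated C (vertical) and in control B (horizontal), both in log2(FPKM + 1). The solid line marks equal excess and the dashed lines a 2-fold difference, beyond which lie 5 genes above and 1 below.

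Among the 4 low libraries, truncated B was the lowest most often. It was the lowest in 430 members (61.3%), followed by truncated A in 108, control C in 93 and control A in 58, with ties in 13. Over all eligible IDs truncated B was lowest in 48.7%. The 301 members with a mean of 1 to 5 FPKM had no such excess, at 42.2% against 44.0% of the eligible IDs of that level outside the set. The median distance of truncated B from the mean of the other 3 low libraries was -0.36 (log2) in the set and -0.14 in the eligible IDs outside it. In 33 members (4.70%, against 3.26% of all eligible IDs) truncated B was at least 2-fold below all 3 others. It was at least 2-fold above them in 0 of the 702 members and in 62 of the 15688 eligible IDs, which is rare in both. The choice also works against such IDs, because it caps the highest of the 4 low libraries. The other 3 low libraries lay within 2-fold of each other in 672 members (95.7%), close to the 94.9% of all eligible IDs.

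The position of truncated B in the set was also set beside genes with a smaller gap. It was lowest in 70.6% of 3293 IDs with a gap above 0 and under 0.5 and in 71.0% of 1199 IDs with a gap of 0.5 to 1, against 61.4%, 62.6% and 55.7% of members with a gap of 1 to 1.5, 1.5 to 2 and 2 or more. In the 10494 IDs with no gap the share was 38.5%. The median distance of truncated B from the other 3 low libraries did not follow the same order. It was -0.33 and -0.41 (log2) in the 2 classes of smaller gap, against -0.35, -0.41 and -0.33 in the 3 classes of members, and -0.03 in IDs with no gap. Truncated B was the highest of the 4 in 9.26% of members, against 24.0% of all eligible IDs, and control A in 37.6%, against 22.7%. The choice caps the highest of the 4 and so bears on these shares, which are a description. Within the set the share lowest in truncated B was higher in more abundant classes. It was 42.2% of members with a mean of 1 to 5 FPKM, 74.2% between 5 and 50 FPKM and 87.8% of the 41 members above. In all eligible IDs outside the set it was 44.0%, 52.1% and 45.3%. In those of them with both libraries above the other 4 it ran 60.0%, 76.9% and 83.8%. The median distance in these abundance classes was -0.15, -0.51 and -0.65 (log2) in members. It was -0.14, -0.15 and -0.04 in all eligible IDs outside the set, and -0.29, -0.39 and -0.42 in those with both libraries above the other 4.

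**Figure D4:**
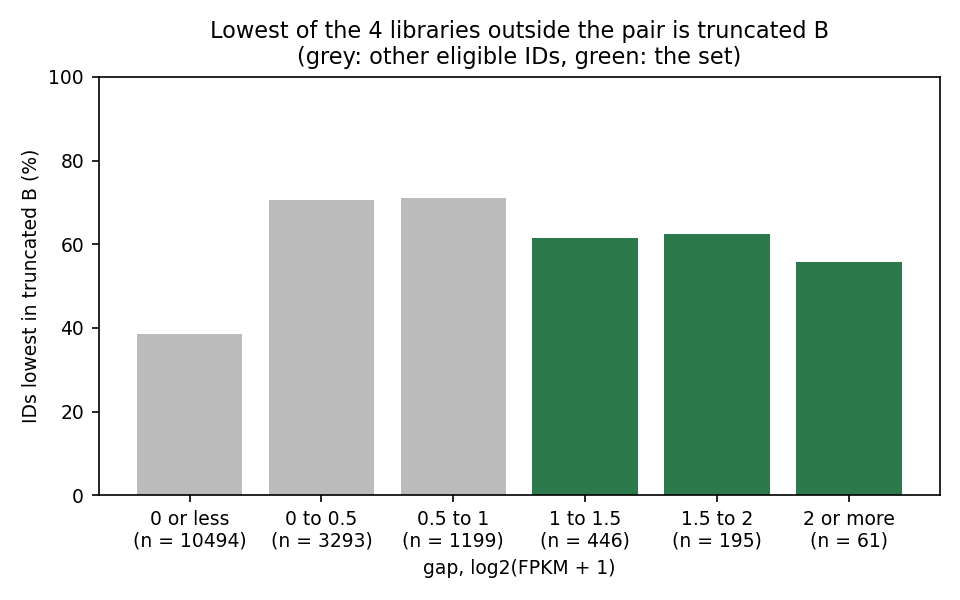
Share of IDs (%) for which truncated B was the lowest of truncated A, truncated B, control A and control C, by the gap in log2(FPKM + 1), with the number of IDs under each bar. The 3 green bars, the set, lie at 55.7% to 62.6%, above the 38.5% of IDs without a gap and below the 70.6% and 71.0% of IDs with smaller gaps.

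The design compares truncated with control leaves. No member passed this test: of 702 members, 0 were higher and 0 lower in truncated leaves by limma at a Benjamini-Hochberg adjusted p under 0.05 over 16054 IDs, where the background was likewise 0 called (0%). At an unadjusted p under 0.05 there were also 0 members, against 6.87% of all tested IDs (4.3% higher and 2.57% lower in truncated leaves), and the smallest p of a member by limma was 0.232 (adjusted p = 0.933). This count is no sign that the set is free of a treatment effect, because the choice of the members puts 1 high library in each group and so raises the spread against which the difference is tested. Fold changes of the set had a median standard error of 0.71 (log2), against 0.25 over all tested IDs. For none of the 702 did the 95% interval lie wholly within a 2-fold change, as it did for 64.1% of all tested IDs. For the same reason the groups overlapped in every member, and IDs whose groups do not overlap could not enter the set. The log2 fold change of the set, truncated minus control, had a median of -0.11 and quartiles of -0.28 and 0.04, and 486 members (69.2%) were negative, against a median of -0.05 and 57.6% over all tested IDs.

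**Figure D5:**
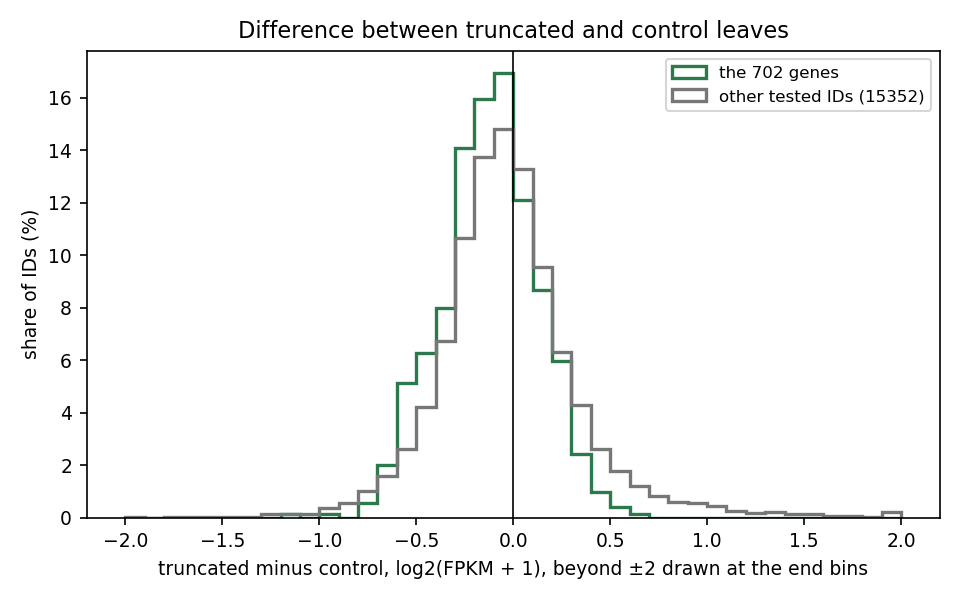
Share of IDs (%) by the difference between truncated and control leaves in log2(FPKM + 1), for the 702 genes (green) and the other tested IDs (grey). The set centres slightly below 0, at a median of -0.11, and lacks the long tails of the other IDs. The choice of the genes limits such tails.

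The size and sign of this median changed with the library left out. It was -0.80 without truncated C, 0.44 without control B, 0.30 without truncated B and 0.12 without truncated A, and -0.38 and -0.41 without control A and control C. Without truncated C or control B the choice favours the sign seen, since the other group keeps its high library. Leaving out a low library raises the mean of its group, because the high library then weighs more there. The direction of these shifts therefore follows from the choice as well. With truncated C and control B both left out, the remaining 2 truncated and 2 control libraries gave a median of -0.26, and 454 of 558 members averaging 1 FPKM or more in these libraries (81.4%) were negative, against 58.9% of all 15452 IDs tested. Against the mean of control A and control C, truncated B was lower in 567 of the 702 members (80.8%) and truncated A in 388 (55.3%), while these shares were 62.2% and 46.9% over all eligible IDs. At an unadjusted p under 0.05, limma found 1 of the 558 members higher and 38 lower, together 6.99% against a background of 8.65% (5.24% higher and 3.4% lower). By direction, the members' share exceeded the background on the lower side and fell short of it on the higher side. This fit called 0 members at an adjusted p under 0.05, where 0% of all IDs were called.

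A further fit kept all 6 libraries and gave truncated C and control B a term of their own. This term was drawn from the same values as the set, so the fit only describes the treatment difference once that pattern is taken out. The median standard error of a member then fell to 0.22, close to the 0.19 of all tested IDs. The 95% interval lay within a 2-fold change in either direction for 588 of the 702 members (83.8%), close to the 80.6% of all tested IDs. At an unadjusted p under 0.05, 2 members were higher and 31 lower in truncated leaves, together 4.70% against a background of 12.5% (6.53% higher and 5.92% lower). None passed an adjusted p under 0.05 (limma), and 0% of all IDs did.

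The members nearest to a treatment difference were still within the spread of their groups. Gb_13675 had 2.88, 0.82 and 13.03 FPKM in truncated A, B and C and 5.36, 25.77 and 5.17 FPKM in control A, B and C, with a log2 fold change of -1.14 ± 0.87 (SE). Gb_36123 had 0.32, 0 and 3.85 FPKM in truncated A, B and C and 1.29, 6.89 and 0.85 FPKM in control A, B and C, with a log2 fold change of -0.79 ± 0.76 (SE). In both, each truncated value was below the control value of like rank, in the high and in the low libraries alike.

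In the opposite direction, Gb_24106 had 0.65, 0.47 and 7.37 FPKM in truncated A, B and C and 0.27, 2.37 and 0.34 FPKM in control A, B and C, with a log2 fold change of 0.61 ± 0.74 (SE). Gb_31614 had 3.28, 3.32 and 17.66 FPKM in truncated A, B and C and 2.28, 10.59 and 1.86 FPKM in control A, B and C, with a log2 fold change of 0.56 ± 0.75 (SE). Here the truncated value was the higher of like rank throughout. By limma the adjusted p was 0.933 for Gb_13675, 0.973 for Gb_36123, 0.989 for Gb_24106 and 0.991 for Gb_31614. These 4 were named as the members of smallest p in each direction. For the 2 members of largest gap, the log2 fold change was -0.53 ± 1.20 (SE) for Gb_04743 and -0.02 ± 1.16 (SE) for Gb_07750, with limma adjusted p of 0.996 and 0.998.

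Members lay beside each other in the ID numbering somewhat more often than their share of the eligible IDs. Of 593 positions directly before or after a member that held an eligible ID, 52 held a member (8.77%). Members made up 4.47% of all eligible IDs. An ID between 2 members is counted at both positions. In all, 50 members (7.12%) had a member as neighbour, in 22 runs of 2 and 2 runs of 3, and the other 652 stood alone. Reads shared between similar neighbouring copies were not tested, though no member had the same 6 values as another ID. Along the numbering, taken in blocks of 5000 numbers, the share of members among eligible IDs was between 3.84% and 5.66%, so members were found in every block.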

How the data were processed

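RNA from leaves of truncated and control trees was sequenced as 6 libraries. The values are FPKM as deposited by the authors, per the file headers, 1 column per library with 2 decimals and no further scaling recorded. CASAVA 1.8, TopHat2 and RSEM appear in the submitters' processing notes, without role or order, and neither genome build nor annotation is given there. FPKM is relative within a library, so fewer fragments in abundant genes raise all others. Groups came from the treatment labels. The members and tests were chosen with earlier results of these data known. Thresholds were applied to the values in whole hundredths of an FPKM, so that a gap of exactly 1 counted as met. Differences between groups were tested on log2(FPKM + 1) with limma 3.58.1 (R 4.3.3, empirical Bayes with mean trend, two-sided, Benjamini-Hochberg over 16054 IDs, of both number types, averaging 1 FPKM or more), a test that was also tested on simulated data. No count model was used, since FPKM are not counts. Relative depth was the most frequent ratio of control A to a library, over IDs between 0.3 and 1.5 FPKM in both (Python 3.11.15, numpy 2.4.6). Shared letters were treated as names and not as pairs. Deviations from group means correlated at 0.19 for A, -0.58 for B and -0.55 for C. The labels do not say whether libraries of the same letter shared trees or handling. Named were the 2 members of largest gap and the 2 of smallest p in each direction. Alternatives changed pseudocount, filter, scaling, variance model, gap and libraries. Unused columns numbered 0.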

Additional observations from a re-analysis of the deposited data

How the results depend on the processing

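The count of 702 genes was 401 with a mean of at least 5 FPKM, 1901 with a gap of at least 0.5 and 61 with a gap of at least 2. It was 842 and 1004 with pseudocounts of 0.5 and 0.1, 794 with equal sums, 516 with median-of-ratios scaling, 720 without a filter and 703 with the 100 highest IDs kept. Leaving 1 library out of the rule gave 728 to 1125, with 1125 without control B, where 117 IDs met the reversed condition. No member passed limma at an adjusted p under 0.05 in any of 16 alternative fits, where the smallest adjusted p of a member was 0.187 to 0.9999. At an unadjusted p under 0.05 the 0 members became 39 without control B and truncated C and 33 with a term for them. Leaving out 1 library gave 0 to 22, the 22 without truncated C (3.33% of the 661 members tested, against 10.4% of all 15769 IDs). All 661 were then lower, a sign that the choice favours, since the only high library left was a control. With the letter as a replicate block, 0 members passed and 0 had an unadjusted p under 0.05. The share lowest in truncated B was 66.5% with equal sums and 53.1% with median-of-ratios scaling, against 55.8% and 36.2% of all eligible IDs, and the share higher in truncated C was 54.4% with median-of-ratios scaling. The cause was not tested. The fold changes of Gb_04743, Gb_07750 and Gb_31614 changed sign in 2, 3 and 1 of 16 fits. Each of these fits left out 1 library, a step that by the choice of the members shifts the fold change. Depth in fragments is unknown, so no counting error is given.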
